A study of Rattus norvegicus with 6 samples.

Results

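Of 43 genes of the cell cycle and its control, 41 were measured in rat soft tissue around a dental implant and in oral mucosa, among 14217 genes that the array annotation named by 1 symbol. The list was set by gene symbol, and no measured value entered its rule, but it was chosen with earlier results of these data known. A gene's value was that of the probe set, the group of short probes that reports 1 transcript, with the highest mean over all 6 arrays. Rrm2, a subunit of ribonucleotide reductase, had probe sets annotated to several genes only, and Tpx2, a spindle assembly factor, had none named for it, so neither was analysed here. The 41 genes were ordered by role into 10 replication genes, 5 cyclins of the G1 phase, 22 mitotic genes and 4 inhibitors of cyclin-dependent kinases.

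The animals were Sprague Dawley males, outbred rats for which the labels name no transgene. All had lost the first molars of the upper jaw, left and right, when 4 weeks old, and tissue was taken 4 weeks later. Peri-implant soft tissue, 3 arrays, came from the left side, where a titanium alloy implant stood in the socket. Oral mucosal tissue, 3 arrays, came from the right side, where the socket had healed without an implant, so implant and side of the mouth cannot be told apart. Whether each array of a tissue stands for its own rat, or for pooled tissue, is not in the labels, so the spread behind the p-values may be technical.

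A dividing cell passes from G1 through DNA synthesis and G2 into mitosis. D-type cyclins with CDK4 or CDK6, and then E-type cyclins with CDK2, inactivate the retinoblastoma protein, and E2F factors then switch on the genes for DNA replication. A later wave of genes, controlled in large part through NF-Y and the CHR-binding DREAM and MuvB-FOXM1 complexes, builds the spindle and carries out mitosis. Inhibitors such as p21, p27 and p57, the products of Cdkn1a, Cdkn1b and Cdkn1c, hold the kinases back. In oral epithelium most division takes place in the basal and parabasal layers, and cells leave the cycle as they differentiate.

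The promoters of members of the replication and mitotic groups and of Cdkn1a, an inhibitor, are shown because the results turn on how these groups compare. Each run is the 250 bases before the annotated start in RefSeq (build GRCr8), 5′ to 3′ on the gene's strand. Capitals mark CCAAT, the NF-Y box, TTTGAA or TTCGAA, the CHR element, and TTTGGCGC, TTTCGCGC, TTTCCCGC or TTTGCCGC, the E2F element, on either strand. Adjoining capitals can be overlapping matches.
Top2a, chr10:84473094-84473343 (minus strand): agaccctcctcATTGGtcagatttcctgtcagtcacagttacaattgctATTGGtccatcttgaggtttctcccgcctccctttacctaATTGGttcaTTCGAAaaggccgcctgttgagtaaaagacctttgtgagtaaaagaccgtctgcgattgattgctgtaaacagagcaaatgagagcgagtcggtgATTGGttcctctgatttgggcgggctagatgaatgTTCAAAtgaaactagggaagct
Mki67, chr1:199952594-199952843 (minus strand): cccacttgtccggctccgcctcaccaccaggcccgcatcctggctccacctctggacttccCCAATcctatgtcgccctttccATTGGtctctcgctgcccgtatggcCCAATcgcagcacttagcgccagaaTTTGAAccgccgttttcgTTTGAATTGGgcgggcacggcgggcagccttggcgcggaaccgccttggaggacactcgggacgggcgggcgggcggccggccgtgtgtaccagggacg
Cdk1, chr20:19265043-19265292 (plus strand): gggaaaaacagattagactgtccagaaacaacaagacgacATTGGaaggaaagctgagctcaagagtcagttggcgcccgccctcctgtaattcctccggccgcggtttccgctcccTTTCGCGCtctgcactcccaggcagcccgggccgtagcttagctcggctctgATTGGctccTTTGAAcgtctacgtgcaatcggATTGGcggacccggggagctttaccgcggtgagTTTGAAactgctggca
Mcm5, chr19:13488563-13488812 (plus strand): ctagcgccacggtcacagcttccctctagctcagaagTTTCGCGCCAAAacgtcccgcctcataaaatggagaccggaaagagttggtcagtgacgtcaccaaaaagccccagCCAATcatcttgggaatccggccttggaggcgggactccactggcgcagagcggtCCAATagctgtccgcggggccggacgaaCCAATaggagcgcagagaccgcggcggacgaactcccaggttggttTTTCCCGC
Mcm3, chr9:30733747-30733996 (minus strand): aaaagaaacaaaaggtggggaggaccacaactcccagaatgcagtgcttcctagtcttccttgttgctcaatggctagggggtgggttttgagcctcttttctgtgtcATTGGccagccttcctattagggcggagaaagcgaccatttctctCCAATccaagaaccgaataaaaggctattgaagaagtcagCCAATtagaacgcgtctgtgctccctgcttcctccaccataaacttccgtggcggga
Cdkn1a, chr20:7150682-7150931 (plus strand): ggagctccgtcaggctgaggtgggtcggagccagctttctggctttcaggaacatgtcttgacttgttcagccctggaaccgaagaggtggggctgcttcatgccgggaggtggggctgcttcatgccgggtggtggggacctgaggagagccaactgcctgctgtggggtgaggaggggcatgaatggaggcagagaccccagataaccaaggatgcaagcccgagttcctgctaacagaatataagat
Of the 43 listed genes 33 had a promoter in the table. CCAAT was present in 16 of 19 mitotic promoters (84.2%), in 6 of 9 replication promoters (66.7%) and in 35.5% of 19005 promoters of protein-coding genes. A CHR element was present in 10 of 19 mitotic promoters (52.6%), in 3 of 9 replication promoters (33.3%) and in 16.5% of all. E2F letters were present in 5 of 9 replication promoters (55.6%), in 1 of 19 mitotic promoters (5.26%) and in 2.28% of all. Among the promoters printed, that of Top2a held 4 copies of CCAAT and 2 of the CHR element, that of Mcm5 held 3 copies of CCAAT and 3 E2F matches of which 2 overlap, and that of Cdkn1a held none of these letters. Of 3 inhibitor promoters, that of Cdkn1b held CCAAT and that of Cdkn2b held a CHR element (33.3% each). These matches describe the sequences and are not evidence that a factor was bound.

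Values are the deposited log2 signals, on which a step of 1 is a factor of 2 on the linear scale. A member was called when it passed an adjusted p of 0.05 in limma, a linear model that borrows information on the spread across probe sets, with Benjamini-Hochberg adjustment over all 18625 probe sets tested. The array medians were 6.62 to 6.78, and profiles correlated at 0.975 to 0.981 within the peri-implant group, 0.965 to 0.974 within the mucosal group and 0.931 to 0.945 between them. Epithelial markers were abundant in both tissues, and the summed linear signal of the 8 measured was 302498 to 411295 in peri-implant tissue and 294245 to 416398 in mucosa. Krt10, Krt13 and Krt14, with means of 15.71 to 16.52 near the array maxima of 16.14 to 16.78, made up much of this sum. Krt4, a keratin of oral mucosal epithelium, was higher in peri-implant tissue by 3.12 (8.70-fold) and Krt1, a keratin of cornifying epithelium, by 1.14, while Krt5 was lower by 0.50 and Perp by 0.47. Over all genes tested 15.2% were called higher in peri-implant tissue and 11.0% lower. Leukocyte markers were called higher in 10 of 10 tested, although 4 of the 13 measured were dim, with a mean below 5.90. Of the dim markers Itgam, Cd79b and Ms4a1 fell below the filter on the mean over all 6 arrays and were not tested. Cd3e passed that filter only through its peri-implant mean of 7.45, against 3.92 in mucosa, so the count depends in part on the filter. The 13 leukocyte markers had summed linear signals of 16513 to 17169 in peri-implant tissue against 3068 to 3246 in mucosa. Cd74, with means of 13.50 in peri-implant tissue and 10.35 in mucosa, weighed most in these sums. Fibroblast markers were lower in 6 of 8 and higher in 2, at 40713 to 42506 in peri-implant tissue against 64571 to 70702 in mucosa. Erythroid markers were called higher in 3 of 4 tested. Endothelial markers were called higher in 1 of 6, near the 15.2% of all genes, although all 6 differences were positive, with a median of 0.54. Bone markers were called lower in 2 of 3, and 6 of 8 skeletal muscle markers were dim. Of the 2 muscle markers tested Mb, myoglobin, was higher by 4.10 (adjusted p = 1.19e-04, limma). Its mean was 8.35 in peri-implant tissue and a dim 4.25 in mucosa, so it passed the filter only through the peri-implant group. Myh1 differed by -0.02 and did not pass. No marker of these lists stood at 0 on any array. In such bulk samples, fewer cells of a type and less RNA per cell cannot be told apart, and the part of these cell types in the results below was not tested.

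Most genes that carry out DNA replication and mitosis did not pass the test between peri-implant tissue and mucosa, while several G1 cyclin and inhibitor genes differed. Cdkn1c, which encodes p57, was lower in peri-implant tissue by 1.65 (3.14-fold), Cdkn1a by 0.48 and the D-type cyclin gene Ccnd2 by 0.49, and Top2a, DNA topoisomerase IIα, was higher by 0.51. Of the 41 members 9 were called (22.0%), against 26.1% of the 10585 genes tested. Higher in peri-implant tissue were 4 members, against 15.2% of all genes, and lower were 5, against 11.0% of all genes. The groups did not overlap for 14 members, against 41.9% of all genes, and 1 member differed by at least 2-fold, against 8.60% of all genes. The calls fell unevenly over the roles, with 3 of 32 replication and mitotic genes and 6 of the 9 G1 cyclins and inhibitors called. No set test was made of this division.

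**Figure D1:**
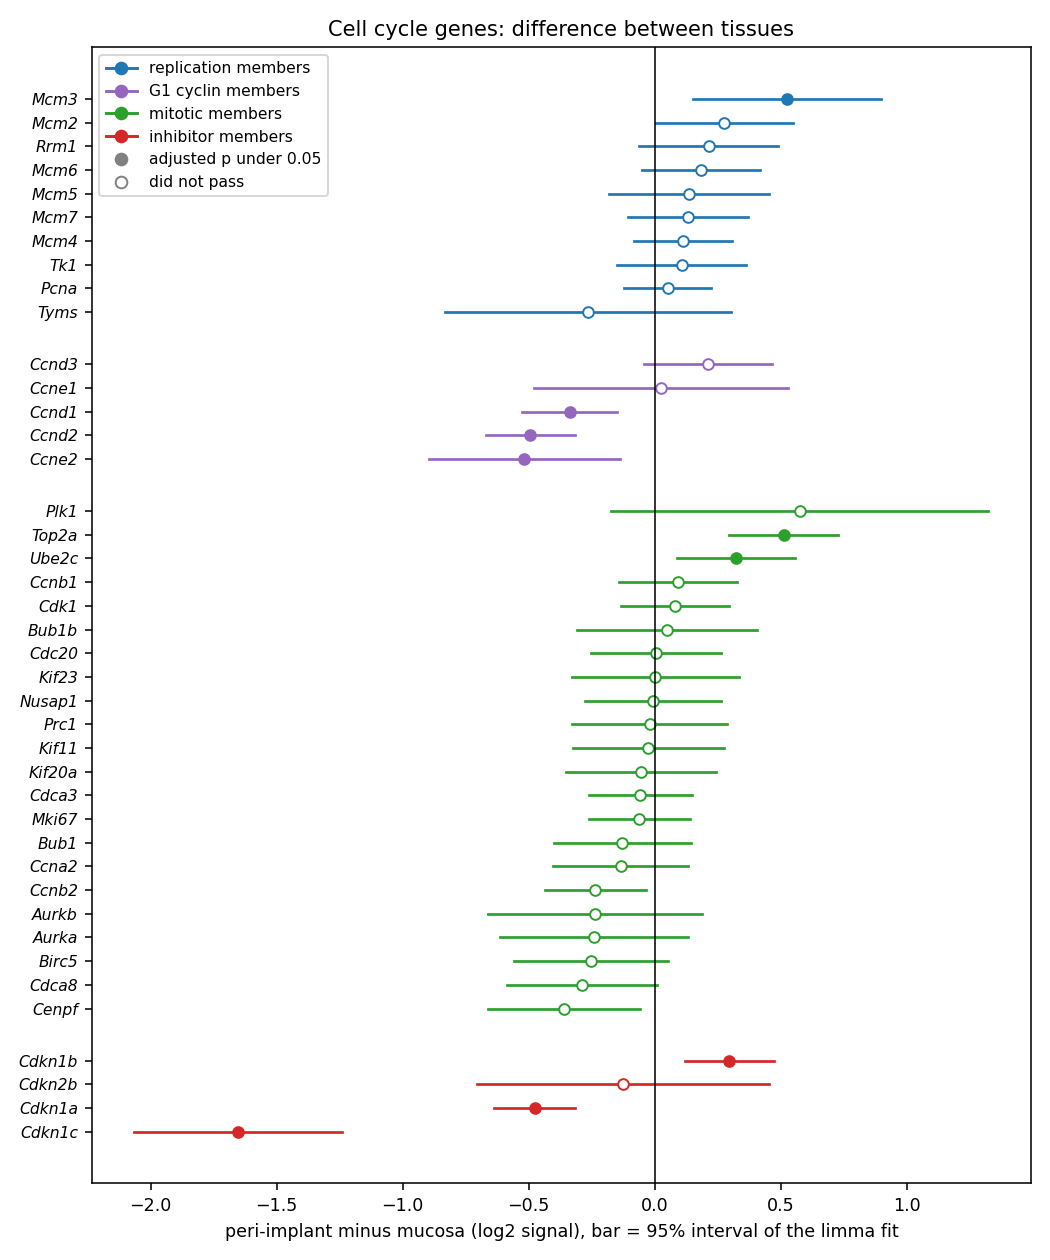
Difference of each of the 41 members, peri-implant minus mucosa in log2 signal, with the 95% interval of the limma fit, sorted within roles. Filled points passed the adjusted threshold and open points did not. Cdkn1c at -1.65 lies apart from the other members, which lie between -0.52 and 0.58.

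The median difference was 0.13 for replication genes, -0.04 for mitotic genes, -0.34 for G1 cyclins and -0.30 for inhibitors, and 0.03 over all genes tested. Peri-implant signals were higher on average for 9 of 10 replication genes and for 8 of 22 mitotic genes, against 5769 of all 10585 genes tested. The middle of the range, between the quartiles, was 0.11 to 0.21 for replication genes and -0.21 to 0.04 for mitotic genes, against -0.20 to 0.27 for all genes. For 25 of 32 replication and mitotic genes (78.1%) the 95% interval of the difference lay wholly within a 1.5-fold change in either direction. The same held for 58.7% of the 9177 genes whose mean signal was at or above that of the lowest member, of which 28.0% were called. These 9177 genes were not otherwise matched in signal to the 32. The intervals of the 32 bound most of their differences only as far as the spread between arrays, which may be technical, reflects that between rats. They do not show the differences to be 0.

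The replication genes act in DNA replication itself or in the supply of deoxynucleotides for it. Pcna, the sliding clamp that holds DNA polymerases on the template, stood at 12.60, 12.68 and 12.85 in peri-implant tissue, against 12.61, 12.70 and 12.65 in mucosa. The groups overlapped, and the difference of 0.05 had a 95% interval of -0.12 to 0.22 (adjusted p = 0.697, limma). Mcm2, a subunit of the MCM helicase that is loaded on origins and unwinds DNA, stood at 9.66, 9.58 and 9.60 in peri-implant tissue, against 9.12, 9.61 and 9.28 in mucosa. Mucosal array 2 lay among the peri-implant values, and the difference of 0.28 did not pass (adjusted p = 0.142, limma). Without mucosal array 2 it was 0.41 and passed (adjusted p = 0.0189, limma).

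Mcm3, another helicase subunit, was the replication gene that was called. Its signals were 8.75, 9.38 and 8.72 in peri-implant tissue and 8.43, 8.39 and 8.45 in mucosa. The groups did not overlap, but peri-implant array 2 stood well above the other two. The difference was 0.53 (SE 0.17, adjusted p = 0.0443, limma), and it was 0.31 without peri-implant array 2 (adjusted p = 0.227, limma). The call was also lost without mucosal array 1, 2 or 3 (adjusted p = 0.0939, 0.0847 and 0.0706, limma), and it held in 6 of 15 alternatives in all.

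The helicase subunits Mcm4, Mcm5, Mcm6 and Mcm7 had differences of 0.11, 0.14, 0.18 and 0.13, and none passed. Rrm1, the large subunit of ribonucleotide reductase, which makes deoxynucleotides, averaged 10.07 ± 0.04 in peri-implant tissue and 9.85 ± 0.30 in mucosa (SD, n = 3 each). Tk1, a thymidine kinase of the salvage pathway, averaged 9.07 ± 0.12 in peri-implant tissue and 8.96 ± 0.08 in mucosa. Tyms, thymidylate synthase, had the only negative difference among replication genes, at 6.75 ± 0.18 in peri-implant tissue against 7.01 ± 0.12 in mucosa, with a wide interval of -0.83 to 0.30. None of these passed.

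The mitotic genes include the proliferation markers most used in histology. Mki67, which encodes the antigen Ki-67 of dividing cells, stood at 9.99, 9.87 and 9.77 in peri-implant tissue, against 9.97, 9.90 and 9.94 in mucosa. These values overlapped, and the difference was -0.06 with a 95% interval of -0.26 to 0.14 (adjusted p = 0.695, limma). Cdk1, the kinase that drives entry into mitosis, stood at 10.09, 9.94 and 10.05 in peri-implant tissue, against 10.10, 9.80 and 9.95 in mucosa, with a difference of 0.08 and an interval of -0.13 to 0.30. Ccnb1, cyclin B1, its partner, stood at 9.49, 9.51 and 9.29 in peri-implant tissue, against 9.40, 9.25 and 9.36 in mucosa. Its difference of 0.09 did not pass either (adjusted p = 0.599, limma), and a second probe set gave 0.08.

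Top2a was the mitotic gene with the smallest p. The enzyme untangles replicated chromosomes before they part. Its signals were 9.91, 9.97 and 9.97 in peri-implant tissue and 9.58, 9.32 and 9.41 in mucosa, so that every peri-implant array lay above every mucosal one. The difference was 0.51 (SE 0.10), or 1.43-fold (adjusted p = 0.00221, limma), and it was called in 15 of 15 alternatives, where it was 0.36 to 0.59. A second probe set for Top2a read 8.79, 8.55 and 8.72 in peri-implant tissue, against 8.51, 8.66 and 8.23 in mucosa. There the groups overlapped, and the difference of 0.22 did not pass (adjusted p = 0.351, limma).

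Ube2c, a ubiquitin-conjugating enzyme that works with the anaphase-promoting complex, stood at 9.91, 9.96 and 9.97 in peri-implant tissue, against 9.68, 9.40 and 9.79 in mucosa. The groups did not overlap, and the difference was 0.32 (SE 0.11, adjusted p = 0.0488, limma). Its call was lost in 10 of 15 alternatives, among them the omission of any single array except mucosal array 3 (adjusted p = 0.0804 to 0.154, limma). Without mucosal array 2 the difference was 0.21, and without mucosal array 3 it was 0.41.

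Plk1, a kinase of spindle and centrosome function, had the widest spread of the members, with a pooled SD of 0.66 against a median of 0.13 over members. It stood at 8.16, 7.87 and 8.68 in peri-implant tissue, against 7.13, 7.22 and 8.63 in mucosa. Array 3 was the highest of each group, and the difference of 0.58 did not pass (adjusted p = 0.272, limma). Without mucosal array 3 it was 1.06 and passed (adjusted p = 0.00966, limma), and it was 0.31 without mucosal array 1, 0.36 without mucosal array 2 and 0.36 without peri-implant array 3.

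Some mitotic genes lay lower in every peri-implant array without passing. Ccnb2, cyclin B2, averaged 10.07 ± 0.06 in peri-implant tissue and 10.30 ± 0.13 in mucosa (adjusted p = 0.0880, limma; n = 3 each). Cenpf, a kinetochore protein, averaged 8.24 ± 0.07 in peri-implant tissue and 8.60 ± 0.04 in mucosa (adjusted p = 0.0863, limma). Cdca8, borealin, and Bub1, a checkpoint kinase, were the others, with differences of -0.29 and -0.13. Birc5, survivin, a chromosomal passenger protein with Cdca8 and Aurkb, had a difference of -0.25, and the Aurora kinases Aurka and Aurkb had -0.24 each, with groups that overlapped. The difference of Ccna2, cyclin A2, was -0.13.

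The main probe sets of the remaining mitotic genes had tissue means that lay within 0.06 of each other. Cdc20, an activator of the anaphase-promoting complex, averaged 9.21 ± 0.12 in peri-implant tissue and 9.21 ± 0.14 in mucosa, and Kif23, a kinesin of the midbody, averaged 9.90 ± 0.11 in peri-implant tissue and 9.90 ± 0.38 in mucosa. Nusap1, a spindle protein, Prc1, which bundles midzone microtubules, and Kif11, the kinesin that separates spindle poles, had differences of -0.01, -0.02 and -0.03. Kif20a, a midzone kinesin, Cdca3, a trigger of mitotic entry, and Bub1b, the checkpoint protein BubR1, had -0.05, -0.06 and 0.05. None of the 8 passed. Further tested probe sets differed by more, at 0.25 and 0.17 for Cdc20 and -0.27 for Nusap1, and did not pass either.

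**Figure D2:**
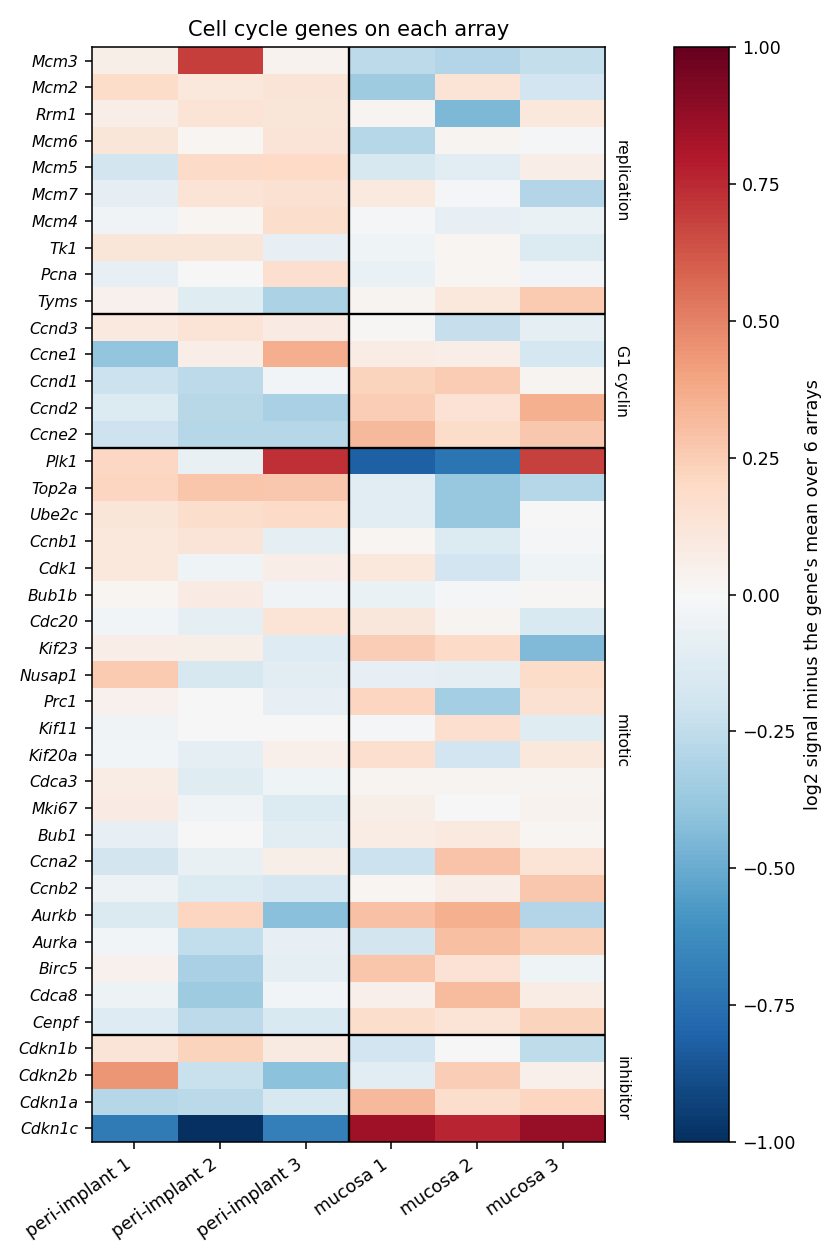
Log2 signal of each member on each array after subtraction of its own mean over the 6 arrays, with roles divided by horizontal lines and tissues by the vertical line. Cdkn1c separates the tissues by the strongest colour contrast. Plk1 is high on array 3 of both groups, and no array is high for all mitotic genes.

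The levels of these genes on single arrays are described here without a test. After each gene was centred on its own mean, the median over the 32 replication and mitotic genes was 0.04, 0.00 and -0.02 on peri-implant arrays 1, 2 and 3, and 0.02, 0.02 and 0.01 on mucosal arrays 1, 2 and 3. For the 22 mitotic genes alone it was 0.03, -0.06 and -0.06 in peri-implant tissue and 0.04, 0.03 and 0.02 in mucosa. Peri-implant array 1 was the highest of its group for 10 of these 22 genes, and mucosal array 1 was the highest of its group for 10. Array 2 was the lowest of its group for 10 of the 22 in each tissue.

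Among the G1 cyclins, 3 of 5 were called, all lower in peri-implant tissue, while of all genes tested 26.1% were called and 11.0% were called lower. Ccnd2, cyclin D2, stood at 11.16, 11.02 and 10.98 in peri-implant tissue, against 11.55, 11.45 and 11.66 in mucosa. The groups did not overlap, and the difference of -0.49 (SE 0.08), or 1.41-fold lower, was called in 15 of 15 alternatives (adjusted p = 6.71e-04, limma). Ccnd1, cyclin D1, stood at 11.11, 11.07 and 11.30 in peri-implant tissue, against 11.55, 11.58 and 11.36 in mucosa. Here too the groups were separate, by a narrow margin between peri-implant array 3 and mucosal array 3, and the difference was -0.34 (SE 0.09, adjusted p = 0.0136, limma). Its call was lost without peri-implant array 1 or 2 or mucosal array 1 (adjusted p = 0.0558, 0.0744 and 0.0552, limma), with differences of -0.31, -0.29 and -0.31.

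Ccnd1 had 2 other tested probe sets. One read 10.58, 10.57 and 10.56 in peri-implant tissue, against 11.11, 11.33 and 10.83 in mucosa, and its difference of -0.52 passed (adjusted p = 0.00319, limma). The other had a difference of -0.21 and did not pass (adjusted p = 0.240, limma). Ccnd3, cyclin D3, which is prominent in lymphoid cells, ran the other way, at 9.10, 9.14 and 9.08 in peri-implant tissue, against 9.01, 8.77 and 8.90 in mucosa. Every peri-implant array lay above the mucosal ones, but the difference of 0.21 did not pass (adjusted p = 0.233, limma).

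The E-type cyclins act at the start of DNA synthesis. Ccne2, cyclin E2, stood at 7.65, 7.57 and 7.56 in peri-implant tissue, against 8.17, 8.04 and 8.12 in mucosa. The groups were tight and well apart, with a difference of -0.52 (SE 0.17), but the adjusted p of 0.04998 in limma was just under the threshold. The call was lost in 11 of 15 alternatives, among them the omission of any 1 array (adjusted p = 0.0702 to 0.133, limma), while the difference was -0.48 to -0.70 over all 15. A second probe set for Ccne2 read 6.54, 4.75 and 6.18 in peri-implant tissue, against 6.59, 6.79 and 6.74 in mucosa. There the peri-implant values were widely spread, and the difference of -0.88 did not pass (adjusted p = 0.188, limma). Ccne1, cyclin E1, stood at 7.18, 7.64 and 7.93 in peri-implant tissue, against 7.65, 7.63 and 7.39 in mucosa. Its groups overlapped, and the 95% interval of the difference was -0.48 to 0.53.

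Of the 4 inhibitors 2 were called lower and 1 higher in peri-implant tissue, while of all genes tested 26.1% were called. Only Cdkn1c differed by more than the called G1 cyclins. Cdkn1c, the imprinted gene for p57, stood at 7.12, 6.74 and 7.14 in peri-implant tissue, against 8.67, 8.59 and 8.70 in mucosa. The groups lay far apart, by 1.65 on the log2 scale (SE 0.19), or 3.14-fold lower in peri-implant tissue (adjusted p = 3.13e-05, limma). This difference was larger in size than that of 96.9% of the genes tested, and it was called in 15 of 15 alternatives, at -1.52 to -1.72.

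Cdkn1a, the p53 target gene for p21, stood at 11.26, 11.28 and 11.39 in peri-implant tissue, against 11.88, 11.72 and 11.76 in mucosa. All peri-implant values lay below the mucosal ones, and the difference was -0.48 (SE 0.07), or 1.39-fold lower (adjusted p = 4.41e-04, limma). A second probe set read 8.78, 8.74 and 8.95 in peri-implant tissue, against 9.36, 9.24 and 9.34 in mucosa, with a difference of -0.49 that also passed (adjusted p = 0.00805, limma). The call held in 15 of 15 alternatives.

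Cdkn1b, the gene for p27, which is abundant in quiescent cells, was the inhibitor that was higher. It stood at 12.07, 12.16 and 12.03 in peri-implant tissue, against 11.75, 11.94 and 11.69 in mucosa. The groups did not overlap, and the difference was 0.30 (SE 0.08, adjusted p = 0.0185, limma). The call was lost without peri-implant array 2, mucosal array 1 or mucosal array 3 (adjusted p = 0.0957, 0.0660 and 0.0560, limma). A second, dim probe set read 6.70, 5.04 and 5.49 in peri-implant tissue, against 5.23, 5.55 and 6.18 in mucosa, with a difference of 0.09, and the mean of both probe sets was not called (adjusted p = 0.524, limma). Cdkn2b, the gene for p15, which blocks CDK4 and CDK6, stood at 7.72, 7.05 and 6.86 in peri-implant tissue, against 7.17, 7.52 and 7.33 in mucosa, and its groups overlapped.

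**Figure D3:**
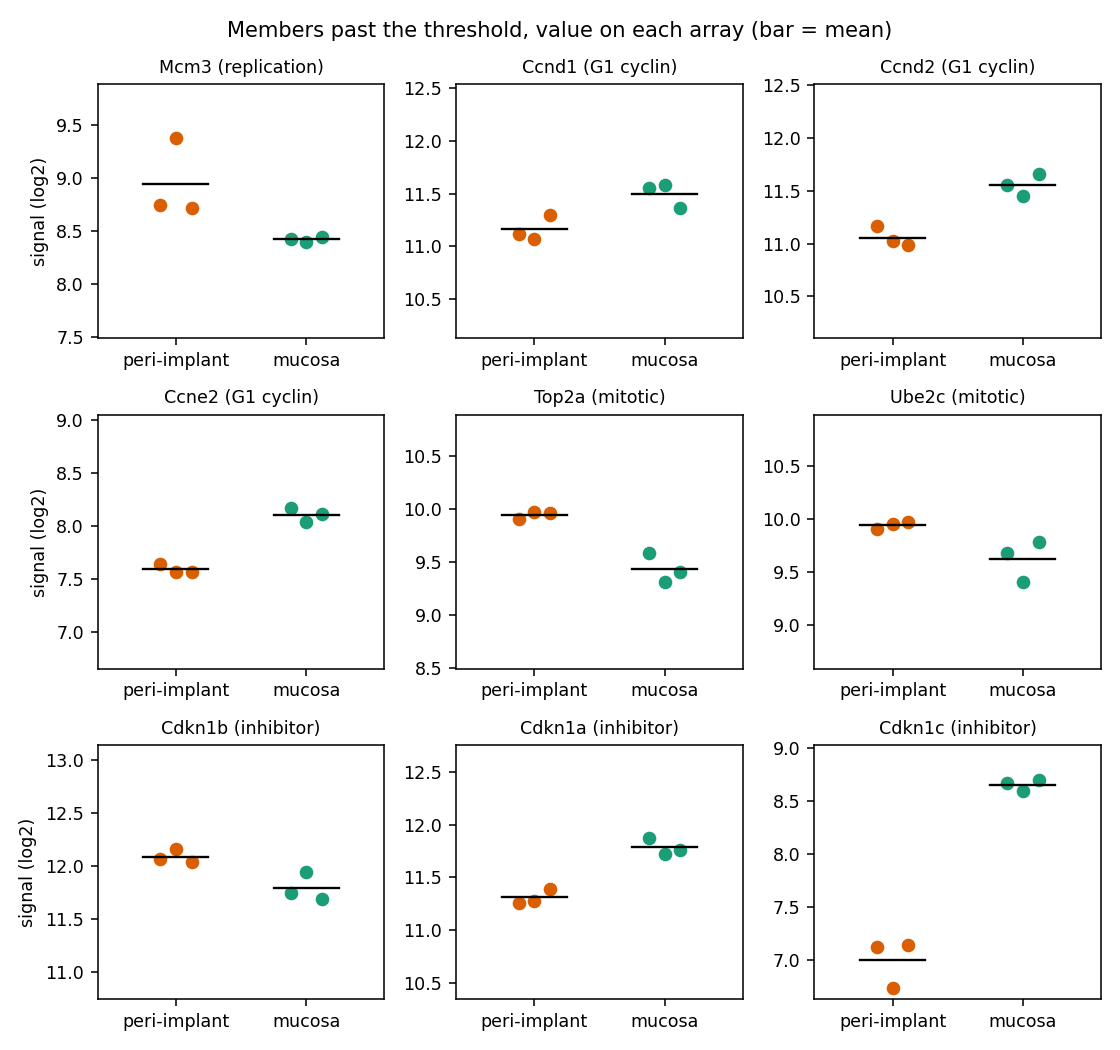
Log2 signal of the 9 called members on each array (points) with group means (bars), peri-implant on the left of each panel and mucosa on the right, every panel spanning the same range of log2 units. The points of the 2 tissues do not overlap in any panel, and the gap is widest for Cdkn1c, at 7.14 or below in peri-implant tissue against 8.59 or above in mucosa.

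For 9 members a further probe set was tested, 11 probe sets in all. The difference had the same sign as that of the main probe set in 11 of 11, and 2 of the 11 were called, those of Ccnd1 and Cdkn1a. Among the further probe sets of all genes 16.3% were called. The plot of these probe sets shows where a gene's probes gave unlike sizes, as for Top2a and Cdkn1b.

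**Figure D4:**
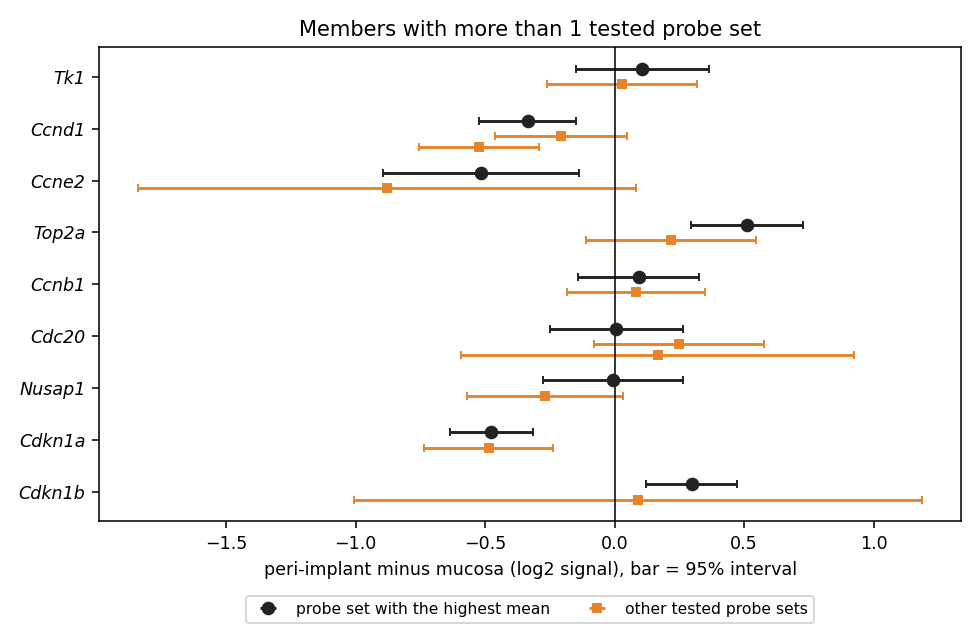
Difference, peri-implant minus mucosa in log2 signal, with 95% intervals for the 9 members with more than 1 tested probe set. Circles are the probe sets with the highest mean and squares the others, and all squares lie on the same side of 0 as their circles.

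Further genes of the same pathways were described from 4 lists. Of 20 tested replication factors 2 were called (10.0%), both higher, against 26.1% of all genes called, with a median difference of 0.09. They were Rfc3, a clamp loader subunit, higher by 0.64 (SE 0.20, adjusted p = 0.0359, limma), and Pold1, the catalytic subunit of DNA polymerase δ, higher by 0.65 (SE 0.21, adjusted p = 0.0453, limma). Both calls were lost without peri-implant array 1, at adjusted p = 0.153 for Rfc3 and 0.105 for Pold1 in limma, and likewise without peri-implant array 3 or mucosal array 1. That of Pold1 was also lost without peri-implant array 2 or mucosal array 3 (adjusted p = 0.0612 and 0.114, limma).

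Of 27 tested genes of the mitotic machinery 1 was higher and 1 lower (7.41% called), against 26.1% of all genes called, with a median of -0.07. Tacc3, a spindle protein, averaged 8.75 ± 0.20 in peri-implant tissue and 8.19 ± 0.26 in mucosa (n = 3 each, adjusted p = 0.0329, limma). Mad2l1, the spindle checkpoint protein MAD2, averaged 8.46 ± 0.10 in peri-implant tissue and 8.86 ± 0.12 in mucosa (adjusted p = 0.0483, limma). With the mean of the gene's probe sets the differences were 0.26 for Tacc3 and -0.0254 for Mad2l1, and neither passed (adjusted p = 0.432 and 0.936, limma). The call of Mad2l1 was lost in 13 of 15 alternatives, among them the omission of any 1 array. That of Tacc3 was lost without peri-implant array 1 or 2 or mucosal array 2 (adjusted p = 0.0555, 0.158 and 0.102, limma).

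Of 17 tested genes of RB, E2F and G1 control 1 was called (5.88%), against 26.1% of all genes. The others did not pass, which does not show them to be equal in the tissues. For 10 of the 17 genes (58.8%) the interval of the limma fit lay wholly within a 1.5-fold change in either direction. E2f2, an E2F factor that activates S-phase genes, stood at 8.42, 8.26 and 8.64 in peri-implant tissue, against 6.76, 6.87 and 5.34 in mucosa. Mucosal array 3 lay below the dim level of 5.90, and the groups were far apart, with a difference of 2.12 (SE 0.35, 4.34-fold, adjusted p = 6.66e-04, limma). It was 1.63 to 2.39 over its 14 alternatives and called in each. E2f1, the best known factor of the family, averaged 7.86 ± 0.18 in peri-implant tissue and 7.90 ± 0.16 in mucosa. Foxm1, a regulator of mitotic genes, averaged 6.90 ± 0.32 in peri-implant tissue and 7.15 ± 0.39 in mucosa, and Mybl2, another, averaged 7.20 ± 0.31 in peri-implant tissue and 6.86 ± 0.50 in mucosa. Cdk4, the kinase partner of D-type cyclins, and Rb1, the retinoblastoma gene, had differences of 0.17 and -0.24. None of the 5 passed. They were picked for mention with their values known.

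Of 18 tested further inhibitors and p53 target genes 9 were called, 4 higher and 5 lower, with a median of 0.07. That is 9 of 18, against 26.1% of all genes tested. Tob1, an antiproliferative protein of the BTG family, averaged 11.97 ± 0.05 in peri-implant tissue and 12.78 ± 0.10 in mucosa (n = 3 each, difference -0.81, adjusted p = 4.22e-06, limma). Cdkn2c, the gene for p18, was lower by 0.72 (adjusted p = 3.60e-05, limma), although the mean of its probe sets differed by -0.31 and did not pass (adjusted p = 0.227, limma). Cdkn3, a phosphatase that acts on cyclin-dependent kinases and whose transcript is abundant in dividing cells, was lower by 0.56. Mdm2, the ubiquitin ligase for p53 and itself a p53 target gene, was lower by 0.42, but the mean of its probe sets did not pass (adjusted p = 0.111, limma). Cdkn2d, the gene for p19, averaged 9.65 ± 0.06 in peri-implant tissue and 9.22 ± 0.03 in mucosa and was higher by 0.42 (adjusted p = 0.00670, limma), and Gadd45a, a stress-induced growth arrest gene, was higher by 0.36, a call that was lost with each array centred on its median (adjusted p = 0.0588, limma).

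**Figure D5:**
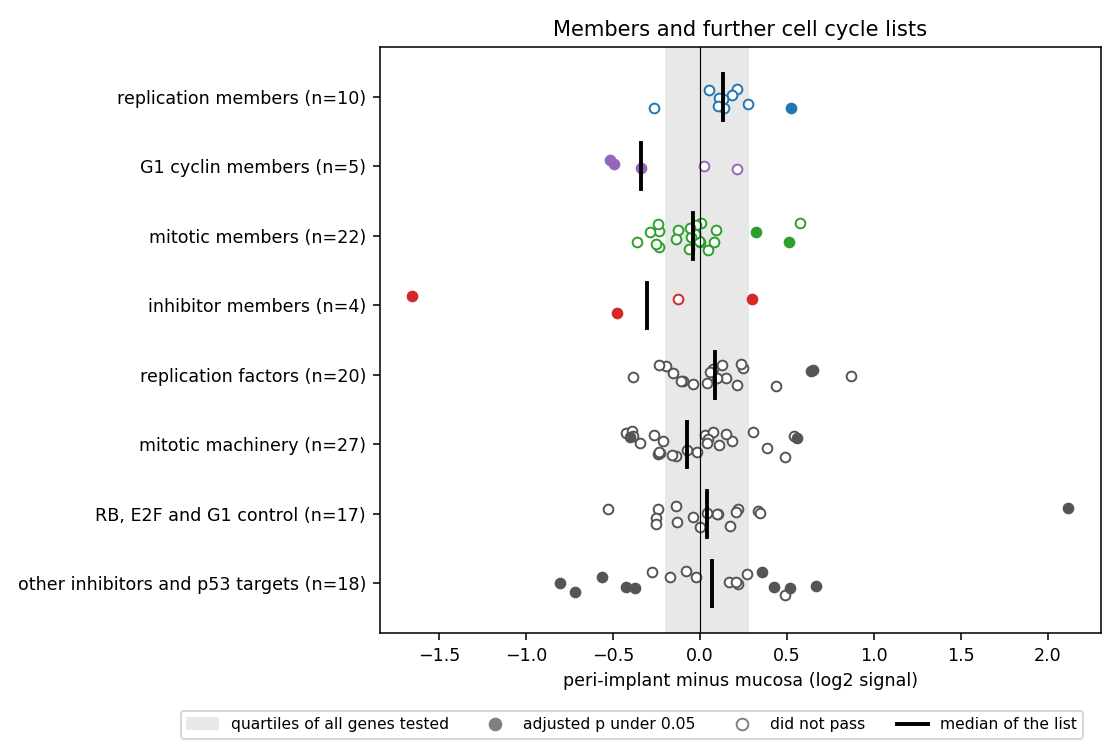
Difference of every tested gene in the 4 roles of the members and the 4 further lists, peri-implant minus mucosa in log2 signal, with black bars at list medians and a grey band from the lower to the upper quartile of all genes tested (-0.20 to 0.27). Filled points passed the adjusted threshold. E2f2 at 2.12 and Cdkn1c at -1.65 lie farthest out.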

How the data were processed

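Per the labels' protocols, RNA was labelled with biotin by an Affymetrix 3′ expression kit, and each of the 6 samples was run on 1 array. The deposited values are log2 signals that the authors had scaled, as the values show: the linear mean with 2% trimmed at each end was about 500.2 on every array, and the lowest value was 0. The software was not given in the sources used here, nor was the background method. The number of arrays limits the precision. The values were used without further normalisation. Of 31099 probe sets, 57 of them controls, the 18625 with a mean above the 40th percentile (5.68) were tested. A single symbol was given for 20826 probe sets, several for 436 and none for 9780. Limma 3.58.1 in R 4.3.3 (variance trend, two-sided) gave differences, intervals and p-values, and was tested on simulated data. A signal below 5.90, the 40th percentile of all single values, is called dim. Every member was accounted for, and array values are given for called members and for 13 listed by symbol, with Plk1 and Ccnd3 added after their values had been seen. In the further lists up to 6 called genes each were named by smallest p. The members and lists were chosen with earlier results of these data known. Alternatives covered the filter, normalisation, dim values, variance model, array weights, choice of probe sets, the replicate number as a block and omission of each array.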

Additional observations from a re-analysis of the deposited data

How the results depend on the processing

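Over 15 alternatives, Cdkn1c, Cdkn1a, Ccnd2 and Top2a kept direction and call in each, while Ccnd1, Cdkn1b, Mcm3, Ube2c and Ccne2 were called in 11, 9, 6, 5 and 4. Of 612 values for members under an alternative, 542 kept direction and side of the threshold, 40 lost the call, 3 gained it and 27 changed sign, all of them members that were not called. Members called higher numbered 4, against 2 without a filter, 2 with quantile normalisation, 1 with centring on the array median and 1 without the variance trend, and 1 to 3 with 1 array omitted. Members called lower numbered 5, against 3 to 4 with 1 array omitted. Genes called numbered 2767, against 1816 without the variance trend and 2056 to 2714 with 1 array omitted. Of the 82 further pathway genes 14 were called, against 6 without the variance trend and 9 to 13 with 1 array omitted. With the filter at the 60th percentile, which dropped Cdkn2b, the inhibitors' median was -0.48, against -0.30. The cause of the other changes was not tested. With quantile normalisation the differences of Ccne1, Cdc20, Bub1b and Kif23 were -0.0442, -0.0409, -0.0223 and -0.0280. With centring, Cdc20 and Kif23 had -0.0137 and -0.0175, and with array weights Ccne1, Cdc20 and Kif23 had -0.0029, -0.0551 and -0.0510. With 1 array omitted the differences ranged from -0.15 to 0.23 for Ccne1, -0.0694 to 0.0652 for Cdc20, -0.22 to 0.13 for Kif23, -0.14 to 0.0831 for Nusap1, -0.20 to 0.0833 for Prc1, -0.0907 to 0.0532 for Kif11, -0.16 to 0.0173 for Kif20a, -0.0181 to 0.11 for Pcna and -0.38 to 0.0471 for Cdkn2b. The labels do not say whether a replicate number shared by the tissues marks the same rat, which the design would allow. Deviations from the group means correlated at 0.01, -0.08 and 0.03 for equal numbers, and not every array correlated best with its own number. With the replicate block 7 members were called, 3 higher and 4 lower, and 2704 genes, with Ube2c and Ccne2 losing their calls (adjusted p = 0.0542 and 0.0747, limma). No member had a tissue mean below the dim level. With 3 arrays a tissue, calls near the threshold were often lost when 1 array was omitted, which also leaves fewer arrays. A member that did not pass is not shown to be equal in the tissues. Implant and side of the mouth were one contrast throughout.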
